A study of Homo sapiens with 24 samples.

Results

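Cercosporamide, a compound described as a selective inhibitor of the kinase MNK2, was compared with its solvent DMSO in the RNA that sedimented with polysomes from PANC-1 cells, an established human cell line from a pancreatic ductal adenocarcinoma. The comparison rests on 8 libraries of the 24 in the series, 4 from cells given 5 uM cercosporamide and 4 from cells given DMSO, all collected after 6 h of treatment in complete growth medium. All libraries come from this 1 cancer cell line, unmodified as far as the labels say, so the 4 numbered replicates of a treatment are repeats of the experiment and not different people. The other 16 libraries hold total cytosolic RNA set aside from the same lysates before the gradient and both kinds of RNA from cells given 40 uM CID661578. Of 54583 genes in the table, the 12538 with at least 1 read in each of the 8 polysome libraries were tested.

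Polysomes are mRNAs that carry several ribosomes at once, and the RNA collected here came from the part of a sucrose gradient with more than 3 ribosomes per mRNA. An mRNA can become more or less frequent in that pool because more or less of it exists or because a different share of its copies is loaded with ribosomes, and reads per gene in the pool count both. MNK1 and MNK2 phosphorylate eIF4E, the protein that binds the cap of an mRNA and, with eIF4G and eIF4A, brings the small ribosomal subunit to it. Levels are given here as CPM, the usual unit for a gene's reads relative to all reads of its library, after TMM scaling, which sets the bulk of genes equal between libraries, so that every change is relative to the other mRNAs of the pool and says nothing of how much RNA was in polysomes overall. Fewer copies of an mRNA per cell and fewer cells with it cannot be told apart in such bulk samples. Changes are log2 values, cercosporamide minus DMSO, with the standard error (SE) of the fit.

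The libraries were of like depth except 1. Reads assigned to genes ranged from 9268041 to 11660094 in 7 of the 8 libraries, and cercosporamide replicate 4 held 1592459. That library alone had no read for 1882 genes that were seen in the other 7 libraries. Replicate 3 also stood apart, in both treatments: the stress-response transcription factor ATF4 was at 505 CPM with DMSO and 361 CPM with cercosporamide there, and between 29.9 and 96.4 CPM in the other 6 libraries. Counts of the whole comparison and of many groups, and many single genes, are therefore given with and without replicate 4. For several stress-response genes the value in replicate 3, or the change without it, is given. The epithelial keratins that mark duct cells were abundant, with KRT8, KRT18 and KRT19 at no less than 7309, 2868 and 2241 CPM of all reads on genes, and the mesenchymal filament protein vimentin (VIM) was at 1337 to 2110 CPM. Of 10 duct and epithelial markers, 7 had reads in every library, among them the transcription factor SOX9 at 13.8 to 52.3 CPM and EPCAM at 2.96 to 8.54 CPM, whereas the chloride channel CFTR had no read in any library and E-cadherin (CDH1) did not exceed 0.902 CPM. The summed level of 8 islet and acinar markers reached at most 0.191 CPM with DMSO and 0.0938 CPM with cercosporamide, and that of 4 endothelial markers reached at most 1.77 CPM and 1.38 CPM. The summed level of 5 immune markers was 365 to 481 CPM with DMSO and 291 to 416 CPM with cercosporamide, and came almost wholly from CD68, while PTPRC and CD3E had no read.

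Cercosporamide changed the composition of the polysome pool widely and in both directions. At an adjusted p below 0.15, the level the study used, 1485 genes were higher (11.8% of those tested) and 1233 lower (9.83%). The median change of all tested genes was -0.05, that of the genes called higher was 0.91, and that of the genes called lower was -0.84. Among the called genes, 588 rose by over 2-fold and 363 fell by over 2-fold. All 4 replicates moved the same way for 1359 of the genes called higher and for 1074 of those called lower.

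Leaving out both libraries of replicate 4 raised the number of genes tested to 14525 and gave 1666 higher (11.5%) and 852 lower (5.87%). Of the 1485 genes called higher with all 4 replicates, 1322 were called higher again, and of the 1233 called lower, 658 were. The direction held for every one of the 2718 called genes. Leaving out replicate 3 gave 955 higher and 755 lower, and leaving out replicate 2 gave 1069 higher and 425 lower. Fitted with no replicate term, that is without pairing the libraries of 1 number, 946 genes were called higher (7.55%) and 590 lower (4.71%).

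**Figure D1:**
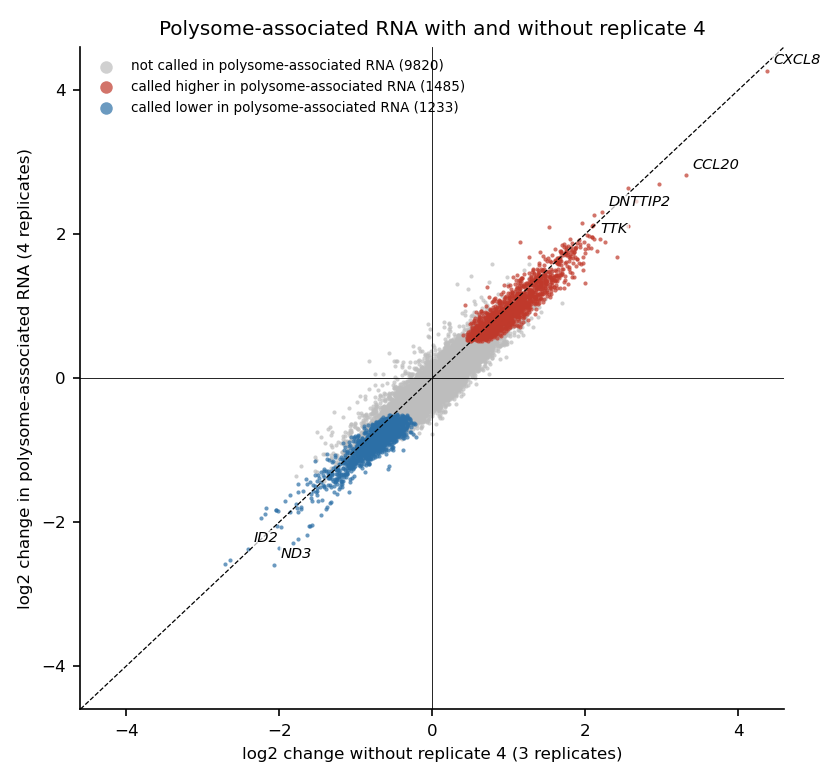
Each point is 1 of the 12538 genes tested, with its log2 change in polysome-associated RNA from all 4 replicates on the vertical axis and without replicate 4 on the horizontal axis. Red points were called higher and blue points lower with all 4 replicates, and the dashed line marks equal values. All called genes lie in the quadrant of their own sign, and ND3 lies below the line, at -2.59 with and -2.06 without replicate 4.

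The genes that rose and the genes that fell differed in base composition. The median GC content of the transcript was 39.8% for genes called higher, 52.7% for genes called lower and 47.5% for all tested genes with a transcript in the reference annotation. At the third codon position, where a base can often change without changing the amino acid, the median GC share was 38.5% for genes called higher, 67.4% for genes called lower and 57.2% for all tested coding genes. The medians for the 5' untranslated region were 61.9%, 71.7% and 67.5%. In the decile of genes with the least GC in the transcript, 41.3% were called higher and 1.4% lower. In the decile with the most GC, 1.32% were called higher and 11.4% lower. Falls were not most frequent at that end. The share called lower was largest, at 19.3%, in decile 7 counted from the least GC, with 50.7% to 53.9% GC. Without replicate 4 the median change was -0.17 in that decile and -0.05 in the decile with the most GC.

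All 4 replicates showed the rise of AT-rich transcripts. The median change in the decile lowest in GC was 0.41, 0.32, 0.88 and 0.58 in replicates 1 to 4. The GC-rich end differed between replicates, since the median of the highest decile was -0.03 and -0.02 in replicates 1 and 2, -0.35 in replicate 3 and -0.77 in replicate 4, the shallow one. In total RNA of the same lysates the median of the lowest decile was -0.17 and that of the highest was 0.13. Coding length was ordered differently among replicates. In the decile with the shortest coding regions the median was -0.65 and -0.57 in replicates 1 and 2 and 0.01 and 0.03 in replicates 3 and 4. Transcripts of genes called higher had a median length of 3612 bases, against 2194 for genes called lower and 2928 for all tested genes.

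**Figure D2:**
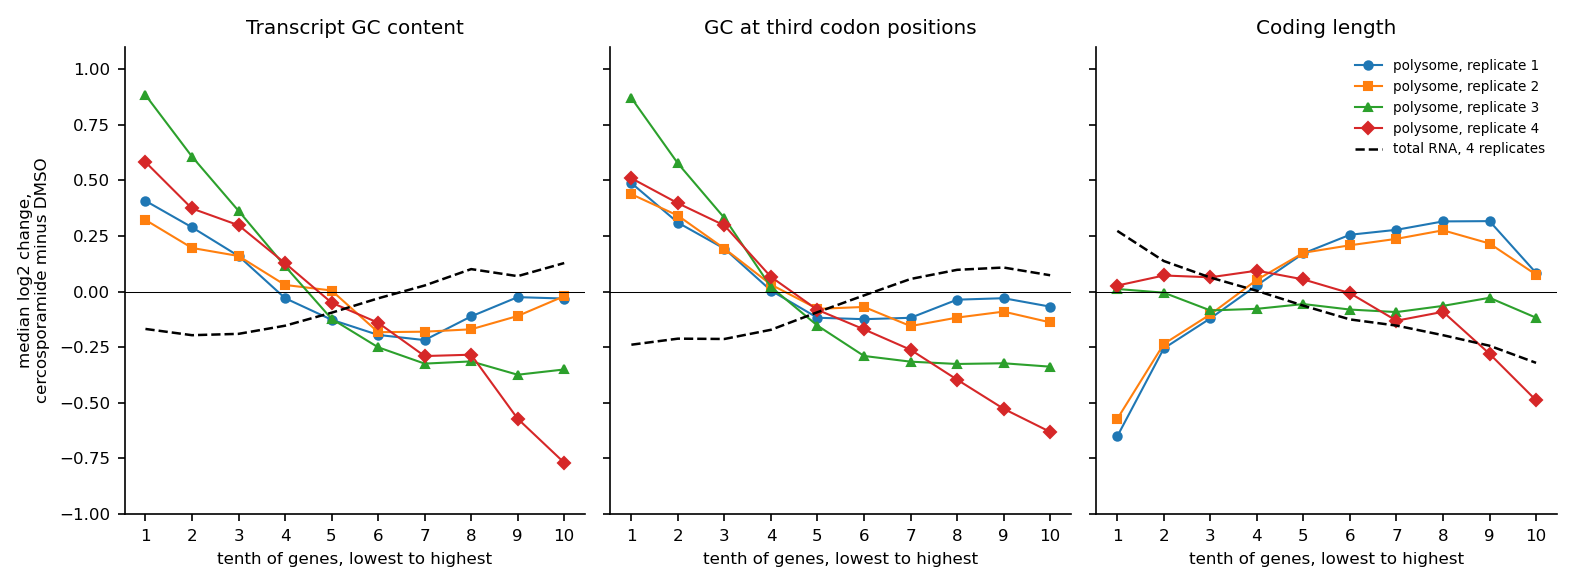
Genes were ranked by transcript GC content (left), GC at the third codon position (middle) or coding length (right) and cut into deciles, with the median log2 change, cercosporamide minus DMSO, on the vertical axis. The lines with symbols are the 4 replicates of polysome-associated RNA and the dashed line is the fit to total RNA. All 4 polysome lines start above 0 at the lowest GC decile, between 0.32 and 0.88, and the total RNA line starts at -0.17.

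Short coding stretches of single genes are printed as examples of base composition. Each was picked to match its own gene's share, so the stretches do not test the difference. For the 3 genes with the largest rise and the 3 with the largest fall among nuclear coding genes that had 1 direction in all replicates, a mean log2 CPM no lower than 3 and a stretch within 1 exon, the first 10 codons after the start codon with the same rounded share of G or C at the third position as the whole coding region are printed, 5' to 3', with the third position of each codon in capitals. The reference is GENCODE on GRCh38.
GLMN: gcTgtAgaGgaActTcaGtcTatAatAaaG
TTK: gaGgaTttAagTggCagAgaAttGacAatT
XRCC4: agAaaAatAagCagAatCcaCctTgtTtcT
ID2: ccCgtGagGtcCgtTagGaaAaaCagCctG
H2AC20: caAggAggCaaGgcCcgCgcCaaGgcCaaG
H1-3: aaAacAccTgtGaaGaaAaaGgcGaaGaaG
The stretches of the genes that rose are from chr1:92297967-92297996 in exon 2 of GLMN on the minus strand, chr6:80005853-80005882 in exon 2 of TTK and chr5:83104926-83104955 in exon 2 of XRCC4, both on the plus strand. Each ends 3 of its 10 codons in G or C, and the share over the whole coding region was 32.8%, 30% and 30.5%. The stretches of the genes that fell are from chr2:8682181-8682210 in exon 1 of ID2, chr1:149886993-149887022 in exon 1 of H2AC20, both on the plus strand, and chr6:26234856-26234885 in exon 1 of H1-3 on the minus strand. They end 8, 8 and 6 of 10 codons in G or C, and the shares over the whole regions were 81.3%, 80.6% and 56.1%. ID2 departs from the trend over the whole transcript, which holds 42.5% GC. H1-3 departs from the trend in its coding region, since its share of 56.1% lies below the median of 57.2% for all tested coding genes.

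The counts were repeated with each library's trend on transcript GC removed, keeping the replicate term. This gave 1036 genes higher (8.26%) and 832 lower (6.64%), among them 776 of the 1485 genes and 567 of the 1233 genes called without the correction. Several groups are given below with both counts. Not every other change is listed here. Calls higher went from 54 to 30 for ZNF genes and from 11 to 3 for centrosome and ciliary transport genes. For DNA replication genes they went from 11 to 9 and for aminoacyl-tRNA synthetases from 9 to 7. They went from 7 to 5 for heat shock proteins and from 6 to 4 for endoplasmic reticulum chaperones. For ERK feedback genes they went from 3 to 6. Calls lower went from 22 to 18 for cytosolic ribosomal proteins and from 19 to 14 for ZNF genes. They went from 11 to 8 for nuclear-encoded respiratory chain subunits and from 8 to 5 for mitochondrial ribosomal proteins. For centrosome and ciliary transport genes they went from 5 to 2, and for both DNA replication and interferon-induced genes from 3 to 1. The 4 integrated stress response genes and the 2 collagen, laminin and integrin genes called lower lost their calls.

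The largest rise among well-measured genes was that of DNTTIP2 (chr1:93866284-93879918), a nucleolar protein needed for pre-ribosomal RNA processing. It was at 74.9, 27.4, 42.0 and 58.5 CPM in DMSO replicates 1 to 4 and at 233, 125, 253 and 409.9 CPM with cercosporamide. Every cercosporamide library lay above every DMSO library, the change was 2.31 (SE 0.25, adjusted p = 9.59e-05), or 4.95-fold, and it was 2.23 without replicate 4. BLZF1, a Golgi protein, rose by 2.12 (SE 0.24, adjusted p = 0.00017), from 20.04, 12.8, 21.8 and 18.3 CPM to 65.9, 43.2, 126 and 101 CPM. GLMN, which binds the ubiquitin ligase subunit RBX1, was at 19.01, 6.80, 14.1 and 19.8 CPM with DMSO and at 57.2, 46.4, 46.6 and 69.3 CPM with cercosporamide, a change of 1.96 (SE 0.25, adjusted p = 0.000252). Neither gene's groups overlapped.

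TTK, the spindle checkpoint kinase MPS1, rose 3.83-fold. Its levels were 60.4, 29.6, 21.2 and 54.3 CPM with DMSO and 162, 110.3, 148 and 170.3 CPM with cercosporamide. XRCC4, the partner of DNA ligase IV in end joining, rose 3.81-fold and TFPI, the inhibitor of the tissue factor pathway of coagulation, 3.79-fold. The other 6 of the 12 largest rises were RECQL, a DNA helicase, RND3, CLGN, a chaperone of the endoplasmic reticulum, CCDC138, the origin recognition subunit ORC3 and the mRNA export factor THOC1, with changes between 1.83 and 1.88. RND3 was the exception in its groups, which overlapped, since replicate 3 was high in both, at 64.5 CPM with DMSO and 334 CPM with cercosporamide. All 12 were called again without replicate 4, with changes from 1.78 to 2.23, and again with the GC trend removed, with changes from 1.31 to 1.96. Their transcripts held 34.7% to 39.9% GC. In total RNA, 8 of the 12 changed by less than 0.3 in either direction and no adjusted p was below 0.388.

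**Figure D3:**
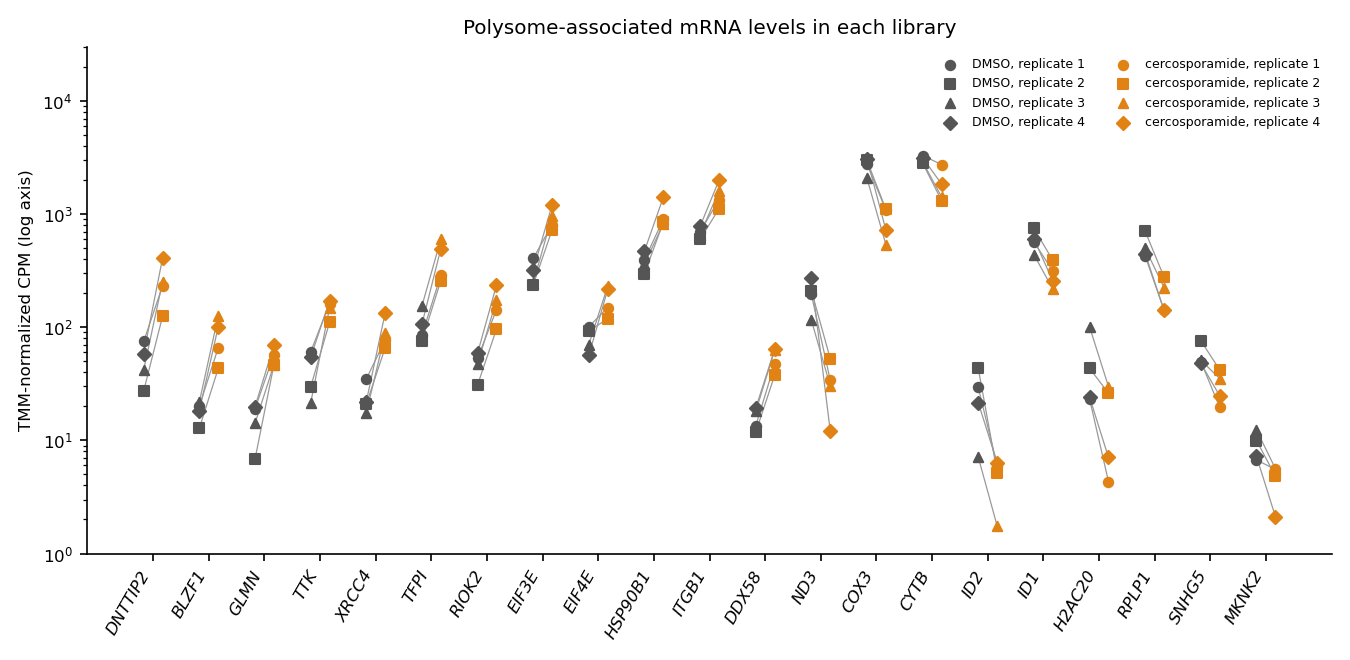
TMM-normalized CPM on a log axis for 21 genes in each of the 8 polysome libraries, DMSO in grey and cercosporamide in orange, with 1 symbol per replicate and lines joining libraries of the same number. The 12 genes on the left rose and the 9 on the right fell. DNTTIP2 moved from 27.4 to 74.9 CPM up to 125 to 409.9 CPM, and ND3 from 115 to 273 CPM down to 12.0 to 52.6 CPM.

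Ribosome biogenesis factors of the nucleolus rose as a group. Of 93 tested, 47 were called higher and 2 lower, against 11.8% and 9.83% of all genes, and the median change was 0.53, with replicate medians of 0.71, 0.66, 0.35 and 0.53. Without replicate 4, 51 were higher and 1 lower. The group's median transcript GC, 45.4%, lay near that of all genes, and 38 were called higher and 1 lower with the GC trend removed. Besides DNTTIP2, the cytoplasmic 40S maturation kinase RIOK2 rose by 1.74 (SE 0.22, adjusted p = 0.000252), from 30.8 to 58.8 CPM with DMSO to 96.1 to 235 CPM with cercosporamide. The 2 that fell were URB1, which acts in early 60S assembly, and IMP3, a protein of the small subunit processome. URB1 changed by -0.76 (adjusted p = 0.104) and IMP3 by -0.53 (adjusted p = 0.125), and neither was called without replicate 4.

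Genes of mitosis and of the DNA damage response also moved mostly up. Among 67 mitosis genes, 28 were called higher (41.8%, against 11.8% of all genes) and 2 lower (2.99%, against 9.83%), with a median of 0.41. Without replicate 4, 30 were higher and 1 lower. HMMR, a spindle-associated hyaluronan receptor, rose by 1.67 (SE 0.25, adjusted p = 0.000519), from 53.2, 30.5, 16.6 and 55.6 CPM to 114, 87.2, 99.1 and 162 CPM. The kinetochore protein SKA1 and the proliferation marker MKI67 fell, by 0.73 and 0.72 on the log2 scale, and neither was called without replicate 4, with adjusted p values of 0.202 and 0.229. Among 42 repair genes, 18 were higher (42.9%) and 1 lower (2.38%), with a median of 0.54, and 23 were higher without replicate 4. The nuclease MRE11 rose by 1.65 (SE 0.24, adjusted p = 0.000332), and its partner NBN by 1.25 (SE 0.26, adjusted p = 0.00474). The kinase PRKDC was the 1 that fell, by 0.78, and it was not called without replicate 4. Both groups are AT-rich, with median transcript GC of 40.8% and 41.2%. With the GC trend removed 21 mitosis genes were higher and 1 lower, their median was 0.18, and 11 repair genes were higher and 1 lower, with a median of 0.22.

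DNA replication genes were divided. Of 56 tested, 11 were higher (19.6%, against 11.8% of all genes) and 3 lower (5.36%, against 9.83%), with a median of 0.09. Without replicate 4, 12 were higher and 3 lower. Within the origin recognition complex, which marks the start sites of replication, ORC3 rose by 1.83 (SE 0.24, adjusted p = 0.000252) while ORC6 fell by 0.99 (adjusted p = 0.0135) and ORC1 fell by 0.87 (adjusted p = 0.0823). ORC6 lay between 30.9 and 36.7 CPM with DMSO and between 12.0 and 20.5 CPM with cercosporamide. DNA2, a nuclease-helicase of Okazaki fragment processing, rose by 1.32 (SE 0.26, adjusted p = 0.00326). Of 20 tested G1/S genes 2 were higher (10%) and 1 lower (5%). Cyclin E2 (CCNE2) rose by 1.67 (adjusted p = 0.00114) and the retinoblastoma gene RB1 by 1.02 (adjusted p = 0.0131). With the GC trend removed CCNE2 was still called, at 1.05, and RB1 was not, at 0.51 (adjusted p = 0.212).

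**Figure D4:**
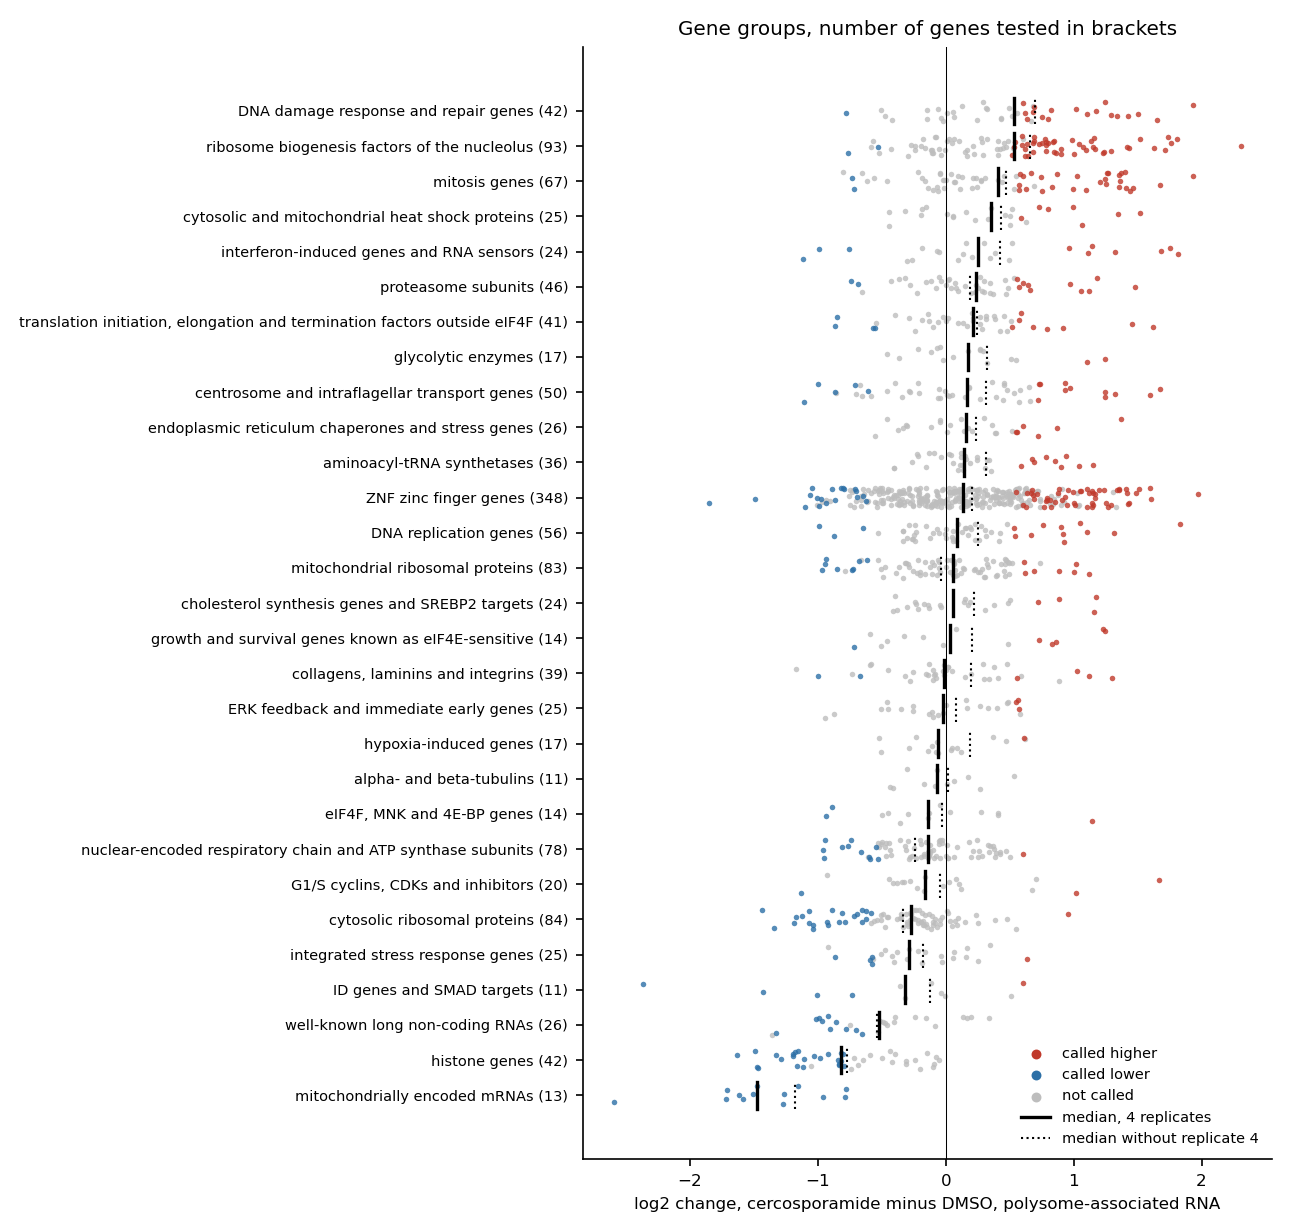
Log2 change in polysome-associated RNA, cercosporamide minus DMSO, for each tested gene of 29 groups, coloured by call, with the group median over 4 replicates as a solid bar and without replicate 4 as a dotted bar. The groups are ordered by the solid median. Repair and ribosome biogenesis genes lie at the top, with medians of 0.54 and 0.53, and histone genes and mitochondrially encoded mRNAs at the bottom, with medians of -0.82 and -1.48.

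The parts of the translation machinery did not move together. Of 84 cytosolic ribosomal protein genes tested, 22 were lower (26.2%, against 9.83% of all genes) and 1 higher (1.19%, against 11.8%). Without replicate 4, 17 were lower and 1 higher. With all 4 replicates the median was -0.27. That median was -0.85 and -0.39 in replicates 1 and 2 but -0.03 and 0.02 in replicates 3 and 4, so that the 4 replicates did not share this decrease. The largest fall was that of RPLP1, a protein of the ribosomal stalk, from 425, 704, 499 and 448 CPM to 141, 276, 223 and 141 CPM, and it was seen in every replicate (-1.44, SE 0.23, adjusted p = 0.00072). RPL28 fell by 1.19 (SE 0.22, adjusted p = 0.00253), and its groups did not overlap. RPS16, the most abundant coding gene among those called lower, fell by 0.70 (adjusted p = 0.117) and was not called without replicate 4 (adjusted p = 0.183). RPL7 was the 1 that rose, by 0.96 (adjusted p = 0.0317), to 2493 to 4260 CPM from 1340 to 2115 CPM, and it was not called with the GC trend removed (adjusted p = 0.167). Ribosomal protein genes have many processed pseudogenes, with which reads can be shared.

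Of 41 initiation, elongation and termination factors outside eIF4F, 8 were higher (19.5%, against 11.8% of all genes) and 4 lower (9.76%, against 9.83%), and with the GC trend removed 5 were higher and 3 lower. EIF3E, a subunit of the scaffold that binds the 40S subunit, rose 3.08-fold (SE 0.24 on the log2 scale, adjusted p = 0.000519), from 406, 237, 246 and 319 CPM to 806, 724, 960.2 and 1203 CPM. EIF2A, which can bring initiator tRNA to the ribosome, rose 2.74-fold. EIF5A, which helps ribosomes through stalled peptide bonds, fell by 0.86 (adjusted p = 0.0332), and EIF1B, a start codon selection factor, fell by 0.85 (adjusted p = 0.0341). For EIF5A the adjusted p was 0.14 without replicate 4 and 0.146 with the GC trend removed, just inside the level. Of 36 aminoacyl-tRNA synthetases, which charge tRNAs with their amino acids, 9 were called higher (25%, against 11.8% of all genes). Without replicate 4, 9 of 37 were called higher. RARS1 rose by 1.15 (SE 0.22, adjusted p = 0.00297) and NARS1 by 1.04 (SE 0.22, adjusted p = 0.00547).

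In the eIF4F complex and its regulators, 14 of 17 genes were tested, 1 was higher (7.14%) and 2 were lower (14.3%), shares near those of all genes. EIF4E, the cap-binding protein itself, was at 101, 92.6, 70.2 and 56.3 CPM with DMSO and at 149, 119, 231 and 216 CPM with cercosporamide. Its groups did not overlap, the rise was 1.14 (SE 0.27, adjusted p = 0.0127), and it stayed at 0.96 without replicate 4. Its transcript holds 34.5% GC, and with the GC trend removed the change was 0.51 (adjusted p = 0.214). MKNK2, which encodes MNK2, fell from 6.71, 9.97, 12.4 and 7.21 CPM to 5.53, 4.83, 5.63 and 2.12 CPM. That change of -0.94 (SE 0.32, adjusted p = 0.0662) rested on few reads and was not called without replicate 4 (-0.74, adjusted p = 0.168) nor with the GC trend removed (-0.70, adjusted p = 0.169). EIF4EBP2, a repressor that holds eIF4E, fell by 0.89 (SE 0.27, adjusted p = 0.0423), with and without replicate 4. MKNK1 was at -0.36 (SE 0.25, adjusted p = 0.39), EIF4G1 at -0.45 (SE 0.25, adjusted p = 0.253) and EIF4EBP1 at -0.50 (SE 0.27, adjusted p = 0.254). Of 14 growth and survival genes known as sensitive to eIF4E, 5 were higher (35.7%, against 11.8% of all genes) and 1 lower (7.14%, against 9.83%). HIF1A, the oxygen-sensing transcription factor, rose by 1.23 (adjusted p = 0.00796), and ODC1, the first enzyme of polyamine synthesis, fell by 0.71 (adjusted p = 0.0404).

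All 13 mRNAs encoded in the mitochondrial genome were lower. These mRNAs are translated inside mitochondria by mitochondrial ribosomes, not by the cytosolic ribosomes that cap-dependent initiation serves. Their median change was -1.48, with replicate medians of -0.66, -1.42, -1.43 and -2.09, and their summed share of all reads on genes was 1.18% to 1.65% in the DMSO libraries and 0.452% to 0.992% in the cercosporamide libraries. ND3, a subunit of complex I, fell most, from 195, 211, 115 and 273 CPM to 34.0, 52.6, 30.2 and 12.0 CPM (-2.59, SE 0.32, adjusted p = 0.000252). COX3, of cytochrome c oxidase, fell from 2778, 2980.4, 2068 and 3081 CPM to 1083, 1099, 537 and 723 CPM (-1.71, SE 0.25, adjusted p = 0.000428). The least change was in ND6 (-0.78, SE 0.23, adjusted p = 0.0405) and CYTB (-0.79, SE 0.25, adjusted p = 0.0524). These were the 2 not called without replicate 4, with adjusted p values of 0.219 and 0.174, while the other 11 were. In total RNA the 13 changes lay between -0.22 and 0.20 and none was called.

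The mitochondrial ribosomal RNA RNR2 fell as well, from 15623, 36077, 24252 and 32302 CPM to 6341, 12196, 7139 and 3957 CPM (-1.90, SE 0.33, adjusted p = 0.00146), and so did RNR1 (-2.04, SE 0.31, adjusted p = 0.000519). Reads on ribosomal RNA had been removed by the authors before alignment, so these levels are what that step left. MTRNR2L9, MTRNR2L12 and MTCO3P12, with changes of -2.36, -2.05 and -2.06, are nuclear copies of mitochondrial sequence and can hold reads of the mitochondrial genes they copy. Of 78 nuclear-encoded subunits of the respiratory chain and ATP synthase, 11 were lower (14.1%, against 9.83% of all genes) and 1 higher, with a median of -0.14 that ran from -0.76 in replicate 1 to 0.37 in replicate 4. COX5A fell by 0.81 (adjusted p = 0.0228), and the complex I subunit NDUFS1 rose by 0.61 (adjusted p = 0.0893). Of 83 mitochondrial ribosomal proteins, 7 were higher (8.43%) and 8 lower (9.64%), a share near the background in each direction. MRPL1 rose by 1.12 (adjusted p = 0.0054) and MRPS16 fell by 0.85 (adjusted p = 0.0219).

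Histone genes fell. Of 42 tested, 23 were lower (54.8%, against 9.83% of all genes), with a median of -0.82 and replicate medians of -1.32, -0.53, -0.69 and -0.53. Without replicate 4, 22 of 51 tested were lower, with a median of -0.77. H2AC20 (chr1:149886918-149887411), an H2A gene, was at 23.2, 43.3, 101 and 24.1 CPM with DMSO and at 4.32, 26.1, 29.9 and 7.07 CPM with cercosporamide. The groups overlapped because replicates differed in level, but each replicate fell, and the change was -1.63 (SE 0.28, adjusted p = 0.00145). The linker histone H1-3 fell by 1.47 (SE 0.29, adjusted p = 0.00384). Most histone mRNAs of dividing cells lack a poly(A) tail and histone genes are near-identical in sequence, so that the reads of single genes are uncertain. Histone transcripts are GC-rich and short, with medians of 58% and 507 bases. With the GC trend removed 14 were lower, and with no replicate term 5 were lower.

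Well-known long non-coding RNAs also fell in the polysome pool, 10 of 26 tested (38.5%, against 9.83% of all genes). Their median was -0.52, with replicate medians of -0.87, -0.84, -0.11 and -0.15. Without replicate 4, 11 of 28 tested were lower. The snoRNA host transcripts SNHG5 and SNHG29 fell by 0.92 (SE 0.23, adjusted p = 0.0163) and 0.97 (SE 0.25, adjusted p = 0.0195). Neither overlapped between groups, with SNHG29 at 23.04 to 28.8 CPM with DMSO and 9.19 to 17.7 CPM with cercosporamide. Removing the GC trend left 10 called lower.

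Among well-measured nuclear genes, those with 1 direction in all replicates and a mean log2 CPM no lower than 3, ID2 had the largest fall. It encodes an inhibitor of basic helix-loop-helix transcription factors and is a classical target of BMP and SMAD signaling. Its levels were 29.3, 43.2, 7.10 and 21.5 CPM with DMSO and 5.96, 5.18, 1.75 and 6.36 CPM with cercosporamide, without overlap, and the change was -2.37 (SE 0.30, adjusted p = 0.000252). It was -2.41 without replicate 4. Its relative ID1 fell from 568, 747, 438 and 604 CPM to 314, 390.4, 217 and 255 CPM (-1.01, SE 0.22, adjusted p = 0.00732). Of the 11 tested ID genes and SMAD targets, 4 were lower (36.4%, against 9.83% of all genes) and 1 higher (9.09%, against 11.8%).

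Some chaperones rose. Of 25 cytosolic and mitochondrial heat shock proteins 7 were higher (28%, against 11.8% of all genes), with replicate medians of 0.49, 0.52, -0.03 and 0.43. Of 26 chaperones and stress genes of the endoplasmic reticulum 6 were higher (23.1%), with replicate medians of 0.01, 0.01, 0.06 and 0.24. Without replicate 4, 6 heat shock proteins and 6 endoplasmic reticulum genes were higher. HSP90B1, the HSP90 of the endoplasmic reticulum, was at 395, 296, 362 and 472 CPM with DMSO and at 899, 852, 822 and 1413 CPM with cercosporamide (1.37, SE 0.23, adjusted p = 0.00117). CHORDC1, an HSP90 co-chaperone, rose 2.87-fold and HSPA13, a microsomal HSP70, 2.54-fold. In replicate 3 alone HSP90B1, CHORDC1 and HSPA13 rose by 1.18, 1.58 and 1.8. HSPA5, the endoplasmic reticulum HSP70 also called BiP, rose by 0.87 (SE 0.26, adjusted p = 0.0409). It was high in both libraries of replicate 3, at 2234 and 2254 CPM, and the change was 1.16 without that replicate. Of 25 genes of the integrated stress response, 4 were lower (16%, against 9.83% of all genes) and 1 higher (4%), with a median of -0.29. Without replicate 4, 3 of 26 were lower and 1 higher. ATF4 fell by 0.58 (adjusted p = 0.106) and its target ATF3 by 0.87 (adjusted p = 0.0594). Neither was called without replicate 3, with adjusted p values of 0.219 and 0.191, nor with the GC trend removed, with adjusted p values of 0.421 and 0.183. The 1 that rose, SLC3A2, a subunit of amino acid transporters, was at 0.64 (adjusted p = 0.121), and without replicate 4 it was at 0.62 (adjusted p = 0.244). In replicate 3 alone, where its DMSO level was high at 3517 CPM, the change was -0.08.

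Of 46 subunits and assembly factors of the proteasome, 10 were higher (21.7%, against 11.8% of all genes) and 2 lower (4.35%, against 9.83%). Without replicate 4 these counts were the same, and with the GC trend removed 9 were higher and 1 lower. The ATPase subunit PSMC6 rose by 1.48 (SE 0.25, adjusted p = 0.00141) and the lid subunit PSMD12 by 1.18 (SE 0.22, adjusted p = 0.00224). The core subunit PSMA7 fell by 0.68 (adjusted p = 0.0606) and the assembly chaperone PSMG3 by 0.74 (adjusted p = 0.0425).

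Among 24 tested interferon-induced genes and RNA sensors, 7 were higher (29.2%, against 11.8% of all genes) and 3 lower (12.5%, against 9.83%). Without replicate 4, 9 of 26 were higher and 1 lower. DDX58, which encodes the RNA sensor RIG-I, was at 13.4, 11.8, 18.0 and 19.3 CPM with DMSO and at 47.4, 37.6, 62.6 and 63.6 CPM with cercosporamide (1.75, SE 0.23, adjusted p = 0.000252). IFIT1, which binds RNA that lacks cap methylation, rose by 1.68 (SE 0.28, adjusted p = 0.00116). The RNA-editing enzyme ADAR fell by 0.99 (adjusted p = 0.0576) and the exonuclease ISG20 by 0.76 (adjusted p = 0.0847), neither called without replicate 4, with adjusted p values of 0.25 and 0.223.

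Surface and lineage genes changed in a few cases. Of 39 collagens, laminins and integrins, 4 were higher (10.3%) and 2 lower (5.13%), no larger a share than of all genes, and without replicate 4 6 of 43 were higher. The integrin subunits ITGB1 and ITGAV rose by 1.12 (SE 0.23, adjusted p = 0.00535) and 1.30 (SE 0.23, adjusted p = 0.00195), ITGB1 from 700.1, 597, 659 and 779 CPM to 1341, 1117, 1605 and 1996 CPM. The laminin chain LAMA5 fell by 1.00 (adjusted p = 0.0852) and the integrin subunit ITGB5 by 0.67 (adjusted p = 0.0689), and neither was called without replicate 4, with adjusted p values of 0.409 and 0.158. Of 4 tested mesenchymal markers, ZEB1, a repressor of epithelial genes, rose by 0.86 (adjusted p = 0.0446) and N-cadherin (CDH2) by 0.62 (adjusted p = 0.149). None of the 7 tested duct and epithelial markers passed edgeR's quasi-likelihood test, and at an unadjusted p below 0.05 there were 0 as well, while DESeq2 called 2 higher. KRT8 was at 0.32 (SE 0.29, adjusted p = 0.512) and KRT18 at 0.54 (SE 0.27, adjusted p = 0.221). The 11 alpha- and beta-tubulins likewise gave 0 calls by both tools and 1 gene at an unadjusted p below 0.05. The remaining groups are given with their shares, against 11.8% of all genes called higher and 9.83% lower. Called higher and lower were 54 and 19 of 348 ZNF genes (15.5% and 5.46%). Among 50 centrosome and ciliary transport genes 11 were higher and 5 lower (22% and 10%). Only rises were called among 24 cholesterol synthesis genes (4, 16.7%) and 25 ERK feedback and immediate early genes (3, 12%). The same held for 17 glycolytic enzymes (2, 11.8%) and 17 hypoxia-induced genes (1, 5.88%). With no replicate term, calls in several groups dropped by over 1.5 times. Called higher were then 11 of the 42 repair genes, 6 of the proteasome genes, 3 of the translation factors, 4 of the heat shock proteins, 2 of the endoplasmic reticulum chaperones, 4 of the interferon-induced genes, 3 of the eIF4E-sensitive genes, 4 of the mitochondrial ribosomal proteins and 32 of the ZNF genes, and 4 of the nuclear-encoded respiratory chain subunits, 6 of the long non-coding RNAs, 12 of the ZNF genes and 1 of the interferon-induced genes lower. Calls lower also went from 4 to 1 for translation factors and from 5 to 2 for centrosome and ciliary transport genes. They went from 3 to 1 for DNA replication genes and from 2 to 0 for both ribosome biogenesis and mitosis genes. The 5 integrated stress response genes and the 3 ERK feedback genes called with the replicate term lost their calls without it.

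Among the most abundant mRNAs that rose were ANXA2, a calcium-dependent membrane-binding protein, B2M, the light chain of MHC class I, CALM2, a calmodulin gene, and MORF4L2, a chromatin protein. B2M went from 1907 to 2917 CPM with DMSO to 3021 to 6908 CPM with cercosporamide (0.85, SE 0.30, adjusted p = 0.0772). MORF4L2 rose by 0.92 (adjusted p = 0.0247), CALM2 by 0.76 (adjusted p = 0.117) and ANXA2 by 0.67 (adjusted p = 0.126). Without replicate 4 only MORF4L2 of these 4 was called, with an adjusted p of 0.0697.

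Total RNA from the same lysates changed much less by the same test. Of 14511 genes tested there, 4 were higher (0.0276%) and 2 lower (0.0138%), with 863 and 748 at an unadjusted p below 0.05. These counts are unstable, since DESeq2 called 239 higher and 108 lower and leaving out replicate 2 gave 360 and 107. The 6 genes are named because they are few, and were chosen after their values were seen, except ID2. The chemokines CXCL8 and CCL20, MYEOV, a gene first found in myeloma, and G0S2, an inhibitor of triglyceride lipase, were higher, by 2.86 (SE 0.32), 2.33 (SE 0.35), 1.04 (SE 0.16) and 1.22 (SE 0.18). The adjusted p was 0.0442 for CXCL8 and 0.132 for each of the other 5 genes. ID2 fell by 1.77 (SE 0.25) and the scaffold protein IQGAP1 fell by 1.28 (SE 0.20) on the log2 scale.

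CXCL8 (chr4:73740519-73743716) was also the gene with the largest rise of all in the polysome pool. It was at 0.413, 0.181, 1.34 and 0.608 CPM with DMSO and at 3.46, 2.55, 43.2 and 12.0 CPM with cercosporamide, a change of 4.27 (SE 0.42, adjusted p = 4.91e-05). The groups did not overlap, the DMSO values rest on few reads, and the change was 3.74 without replicate 3. CCL20 rose by 2.82 (SE 0.55, adjusted p = 0.00311), but mainly in replicate 3, at 40.5 CPM, and without it the change was 1.55 (adjusted p = 0.207). G0S2 rose in polysome-associated RNA too (0.86, adjusted p = 0.0325). MYEOV (0.33, adjusted p = 0.349) and IQGAP1 (-0.36, adjusted p = 0.3) were not called there.

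The difference between the changes in both kinds of RNA was then tested on the 12196 genes seen in all 16 libraries. Changes were compared with their sign, so that a fall counts as smaller than a rise. The signed change was larger in polysome-associated than in total RNA for 1756 genes (14.4%) and smaller for 1349 (11.1%). Of the genes called higher in the polysome pool, 1464 could be tested and 1148 differed in this way, and of those called lower, 720 of 1221 did. Genes called higher had a median change of -0.16 in total RNA, and genes called lower one of 0.04. DNTTIP2 differed by 2.17 (SE 0.27, adjusted p = 0.000133), HSPA5 by 1.65 (SE 0.27, adjusted p = 0.000507), ND3 by -2.73 (SE 0.35, adjusted p = 0.000133) and RPLP1 by -1.68 (SE 0.25, adjusted p = 0.000333). For ID2, called lower in both kinds of RNA, and ID1, at -0.79 in total RNA (adjusted p = 0.195), the difference was -0.51 (SE 0.33, adjusted p = 0.326) and -0.22 (SE 0.24, adjusted p = 0.594), for CXCL8 it was 1.21 (SE 0.44, adjusted p = 0.067), and for CCL20 it was 0.23 (SE 0.58, adjusted p = 0.832). ORC1, PRKDC and MKI67, called lower in the pool, were at -0.95, -0.82 and -0.94 in total RNA, where none of them was called. Their differences were 0.07, 0.05 and 0.22, with adjusted p values of 0.932, 0.935 and 0.612. Among cytosolic ribosomal proteins 51 of 84 had a smaller signed change in the polysome pool than in total RNA. Their median was -0.27 in the pool and 0.38 in total RNA. The same held for 34 of 78 nuclear-encoded respiratory chain subunits and for 23 of 83 mitochondrial ribosomal proteins, whose median differences were -0.48 and -0.18. Among mitosis genes, whose median in total RNA was -0.36, 38 of 67 had a larger signed change in the pool.

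**Figure D5:**
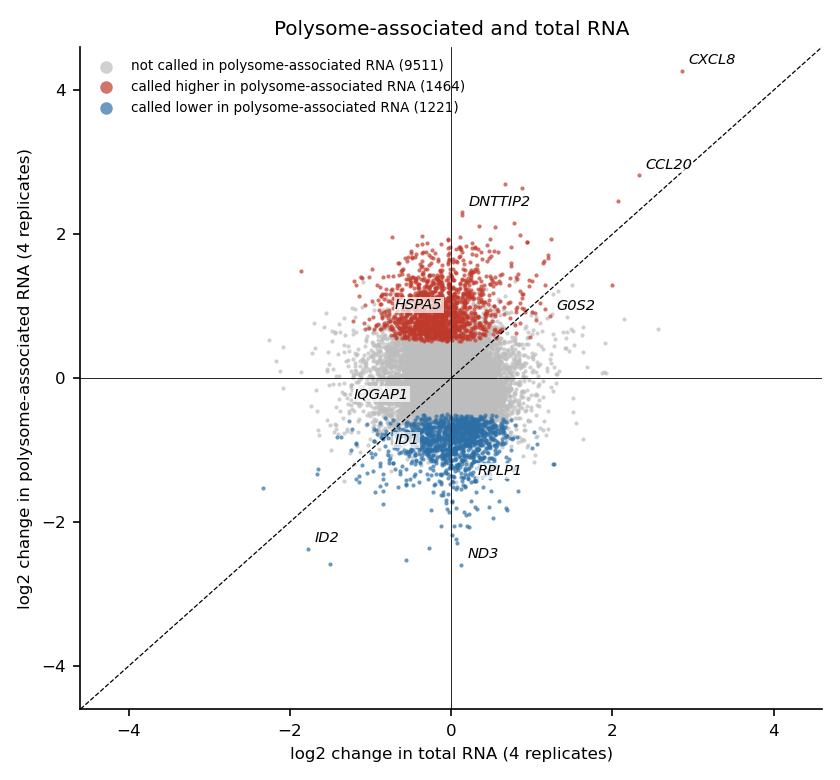
Log2 change in total RNA on the horizontal axis and in polysome-associated RNA on the vertical axis for the 12196 genes tested in both, coloured by the call in polysome-associated RNA, with equal changes on the dashed line. Most called genes stand above or below 0 near the middle of the horizontal axis. ID2 and CCL20 lie closer to the line, CXCL8 lies above it at 4.27 and 2.86, and DNTTIP2, at 2.31 and 0.14, and ND3, at -2.59 and 0.13, lie far from it.

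The cells given CID661578, at 40 uM and so at another dose, were set against the same DMSO libraries, and their values are given beside those of cercosporamide without a comparison. In that order, the median polysome change of the 13 mitochondrially encoded mRNAs was -2.56 and -1.48, ATF4 was at 1.70 and -0.58, the mitochondrial ribosomal RNA RNR2 at 0.15 and -1.90, CXCL8 at 3.07 and 4.27, ID2 at -0.24 and -2.37, and EIF4E at 0.69 and 1.14.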

How the data were processed

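Polysome-associated and total cytosolic RNA were sequenced from PANC-1 cells after treatment with cercosporamide, CID661578 or DMSO. The deposited values are raw read counts per gene: the authors prepared Smart-seq2 libraries from 10 ng of RNA, made reads with bcl2fastq 2.20.0.422, checked them with FastQC 0.11.8, removed adapters and ribosomal RNA reads, aligned to hg38 with HISAT2 and counted reads on RefSeq genes with featureCounts. Counting without strand cannot tell overlapping and antisense genes apart.

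Genes with no zero count in the 8 libraries compared were tested with edgeR 4.0.16 (quasi-likelihood test, TMM scaling, replicate number and treatment as terms, R 4.3.3) and called at a Benjamini-Hochberg adjusted p below 0.15, the study's level. SE is the absolute log2 change divided by the square root of F. Total RNA was fitted likewise, and the difference between both changes as an interaction over 16 libraries. The study's methods use the replicate number as a batch term. Deviations of same-numbered libraries from their group means correlated at -0.0211, 0.393, 0.356 and 0.049 in polysome-associated RNA and between 0.209 and 0.231 in total RNA. The labels do not say what a number shares, so p-values measure the spread between these repeats of 1 cell line.

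GC content and lengths came from GENCODE v44 (GRCh38), with 39020 of the 54583 symbols matched directly, 303 as older symbols and 13 as mitochondrial genes, and 96.5% of tested genes had a value. Coordinates are from that annotation. GC and length trends were removed with splines of 5 degrees of freedom. In data simulated from the polysome libraries with 200 genes changed, 3.5%, 66% and 100% were recovered at log2 changes of 0.5, 1 and 2, and 22.2%, 8.33% and 14.7% of the calls were false. The test of polysome against total RNA, simulated likewise, recovered fewer, 0%, 33% and 100% at the same log2 values. A gene not called by that test can therefore still differ. The simulation gave every gene the same dispersion and no replicate differences, and changed only genes with a mean log2 CPM of at least 3. The real data differ in these points, so these rates need not hold for them.

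The members and gene lists were chosen with earlier results of these data known. Named genes are the 12 largest rises and 12 largest falls among called genes whose mean log2 CPM reached 3 and whose sign was the same in all replicates, up to 2 called genes per list and direction by lowest p (or, with none called, the 2 most abundant), all mitochondrially encoded mRNAs and eIF4F genes, and the 5 most abundant called genes per direction. CXCL8, CCL20, G0S2, MYEOV and IQGAP1 fall outside it. Alternatives included DESeq2 1.42.0, limma 3.58.1 with library weights, other scalings and filters, thinning all libraries to the shallowest (1592459 reads on genes), and leaving out each replicate. Some genes are not reported here.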

Additional observations from a re-analysis of the deposited data

Results flagged for a closer look

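Single libraries stood far from the other 3 of their group in 15 gene levels and in 1 depth, by Dixon's criterion, which chance alone meets in about 1 group of 20. Replicate 3 was high with DMSO for ATF3 (89.9 CPM), SLC3A2 (3517 CPM) and the linker histone H1-3 (66.2 CPM), and low with DMSO for the mitochondrially encoded ATP6 (447 CPM) and ND4 (493 CPM). With cercosporamide, replicate 3 was high for CCL20 (40.5 CPM) and low for ID2 (1.75 CPM). Cercosporamide replicate 4, the library with 1592459 reads on genes, was high for HSP90B1 (1413 CPM) and EIF4EBP2 (11.3 CPM) and low for MKNK2 (2.12 CPM). The others were COX1 in DMSO replicate 1 (2354 CPM, low), NBN in DMSO replicate 4 (21.5 CPM, high), PSMD12 (53.5 CPM, low) and SNHG5 (75.9 CPM, high) in DMSO replicate 2, and NDUFS1 in cercosporamide replicate 2 (168 CPM, low).

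For 10 named genes the change in polysome-associated RNA differed from that in total RNA by the interaction test while all 4 replicates moved one way in the former and the opposite way in the latter. The log2 difference, polysome minus total, was 2.18 for HMMR, 1.96 for HIF1A, 1.91 for HSP90B1, 1.73 for ITGAV, 1.65 for HSPA5, 1.5 for PSMD12, 1.49 for NARS1 and 1.25 for ZEB1, which were higher in the polysome pool and lower in total RNA. It was -1.28 for PSMG3 and -1.09 for MRPS16, which moved the other way. The opposite direction in total RNA rests on the sign in the replicates alone. None of the 10 changes there was called by edgeR's quasi-likelihood test, with adjusted p values from 0.268 for PSMG3 to 0.67 for ZEB1.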

How the results depend on the processing

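None of 103 genes followed through the alternatives changed direction, but these 103 did not include every gene of the naming rule. Most of them were called in the main fit and the alternatives reuse the same libraries, so a stable sign was likely from the start. Outside these 103, some uncalled eIF4F genes did change direction. EIF4G3 and PABPC1 did so without replicate 4, EIF4E2 with the GC trend removed, and EIF4H and PDCD4 in both settings. EIF4H was at -0.04 in the main fit, 0.07 without replicate 4 and 0.2 with the GC trend removed. PDCD4 was at 0.03, -0.03 and -0.43 in the same order. The immune marker CD68, at -0.02, also changed direction in both settings, at 0.09 and 0.24. Counts of calls moved. With no replicate block, that is without pairing by number, the polysome counts were 946 higher and 590 lower, and 17 of 103 genes lost their call. At an adjusted p below 0.05 they were 828 and 389. Leaving out each replicate gave 955 to 1666 higher and 425 to 925 lower, with the fewest lower without replicate 2. Lower calls were 751 with no filter on low counts and 654 with libraries thinned to the shallowest. DESeq2, limma voom with library weights, other scalings, the remaining filters and the length and GC corrections kept both counts within 1.5 times. In total RNA no replicate block gave 0 and 0 (edgeR, with 435 and 467 at an unadjusted p below 0.05, against 239 and 108 called by DESeq2). An adjusted p below 0.05 gave 1 and 0 there, and leaving out each replicate gave 0 to 360 higher and 0 to 107 lower. In the test of polysome against total RNA, an adjusted p below 0.05 gave 999 larger and 651 smaller changes, and leaving out each replicate gave 1001 to 1493 and 638 to 1972, with the fewest without replicates 2 and 1 and the most smaller ones without replicate 3. With no replicate block these counts were 1742 and 1356. The cause of these differences was not tested.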
